A study of Mus musculus with 23 samples.

Results

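The 10 genes described here encode enzymes, and with Alox5ap a helper protein, that make or break down lipid mediators from membrane phospholipids. They are Pla2g4a, Pla2g2d and Pla2g7 (phospholipases), Ptgs1, Ptgs2, Ptges and Hpgds (the prostaglandin arm), and Alox5, Alox5ap and Ltc4s (the leukotriene arm). They were taken by name from a table of 54532 genes, and all 10 passed the low-count filter that kept 16545 genes for testing. Their RNA was followed in macrophages of the mouse heart, before and after myocardial infarction, with and without myeloid Smad7.

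Prostaglandins and leukotrienes are short-lived signals derived from arachidonic acid. Cytosolic phospholipase A2 frees arachidonate from membranes, the cyclooxygenases Ptgs1 and Ptgs2 turn it into prostaglandin H2, and terminal synthases convert that into prostaglandin E2, D2, thromboxane or prostacyclin. In the other arm, 5-lipoxygenase, helped by its activating protein, makes leukotriene A4, which becomes the neutrophil attractant leukotriene B4 or the cysteinyl leukotrienes. Macrophages are a main source of both families, and Ptgs2 is the classic inducible member in inflamed tissue, whereas Ptgs1 is usually described as constitutive.

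All mice were C57BL/6 and carried 2 floxed Smad7 alleles. Controls (S7fl/fl) had no Cre, and MyS7KO mice were their littermates of genotype LyzM-Cre;Smad7fl/fl, in which the lysozyme M promoter drives recombination in myeloid cells in general, not in macrophages alone. Hearts were taken with no infarct (baseline) or 3 or 7 days after permanent ligation of the left anterior descending artery, and CD11b+ cells were collected on magnetic columns after removal of Ly6G+ neutrophils. The groups held 3 S7fl/fl and 3 MyS7KO libraries at baseline, 5 and 5 at day 3, and 3 and 4 at day 7, in all 23 libraries of 15.5 to 23.9 M counts. The labels give no age and do not say that every library is a separate heart, so a p-value here reflects only how far these libraries scattered, and that scatter may be technical.

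Levels are given as CPM (counts scaled to a common library size with TMM factors) with the SD over libraries, and changes as log2 values with their standard error, from edgeR's quasi-likelihood test. A gene was called when its Benjamini-Hochberg adjusted p over all 16545 genes was under 0.05. Comparisons between different genes use the deposited FPKM, which are corrected for gene length.

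Smad7 was lower in MyS7KO at each time without reaching that threshold, at 19.7 to 48.7 CPM against 53.1 to 61.2 at baseline, 10.5 to 19.9 against 30.4 to 42.0 at day 3, and 16.0 to 33.4 against 57.4 to 70.2 at day 7 (edgeR adjusted p = 0.999, 0.110 and 0.0702). The ranges of the genotypes did not meet at any time. By the balance of Xist against Y-linked reads, 2 of 3 S7fl/fl and 1 of 3 MyS7KO libraries read as female at baseline. At day 3 this was 2 of 5 and 3 of 5. At day 7 it was 0 of 3 S7fl/fl and 4 of 4 MyS7KO libraries, so sex and genotype cannot be told apart there. The sexes also shifted between times within each genotype, so comparisons of day 7 with earlier times differ in sex as well. A minor sex signal above 2% marked S7fl/fl day 3 replicate 4 and MyS7KO day 3 replicates 2 and 3. Macrophage markers summed to 7236 to 13951 CPM, with none of 8 at 0 in any group. The neutrophil marker Ly6g averaged at most 3 counts per library in every group.

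The stretches of 250 bases upstream of the RefSeq transcript starts of 4 of these genes (GRCm38.p6) are shown because they belong to the pair of cyclooxygenases that moved in opposite directions and to the 2 genes with the deepest declines. RefSeq held a start for 9 of the 10 genes, all but Alox5ap. Each is written 5′ to 3′ on the strand of its gene, ending at the base before the start, with matches to the searched motifs in capitals.

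Ptgs2, chr1:150099781-150100030, plus strand: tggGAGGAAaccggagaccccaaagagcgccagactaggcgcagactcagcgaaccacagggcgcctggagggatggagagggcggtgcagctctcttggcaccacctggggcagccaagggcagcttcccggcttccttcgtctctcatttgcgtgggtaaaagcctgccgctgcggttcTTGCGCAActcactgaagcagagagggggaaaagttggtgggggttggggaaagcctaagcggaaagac
Ptgs1, chr2:36230176-36230425, plus strand: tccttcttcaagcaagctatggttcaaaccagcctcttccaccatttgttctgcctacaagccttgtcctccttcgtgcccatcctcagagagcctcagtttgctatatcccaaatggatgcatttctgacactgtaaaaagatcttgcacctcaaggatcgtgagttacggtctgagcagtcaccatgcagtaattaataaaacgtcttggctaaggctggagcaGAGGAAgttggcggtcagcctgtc
Alox5, chr6:116461179-116461428, minus strand: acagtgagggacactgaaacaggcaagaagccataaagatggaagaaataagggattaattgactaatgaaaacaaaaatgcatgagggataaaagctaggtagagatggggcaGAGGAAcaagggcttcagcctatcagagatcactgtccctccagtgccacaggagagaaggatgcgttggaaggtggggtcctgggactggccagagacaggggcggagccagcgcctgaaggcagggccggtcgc
Pla2g2d, chr4:138775485-138775734, plus strand: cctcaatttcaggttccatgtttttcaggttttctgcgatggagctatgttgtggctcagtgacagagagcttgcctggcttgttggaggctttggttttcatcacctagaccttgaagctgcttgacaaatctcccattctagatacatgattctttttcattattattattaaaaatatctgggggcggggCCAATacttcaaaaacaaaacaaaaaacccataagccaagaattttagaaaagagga

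Both strands were searched for 7 motifs, and shares are of the 32851 RefSeq stretches of the same length. The E-box core CACGTG stands in 6.02% of them, the cyclic AMP response element part CGTCA in 17.8% and the C/EBP-like TTGCNNAA in 9.56%. The PU.1 core GAGGAA stands in 23.3%, the TATA box letters TATAAA in 12.4%, the AP-1 motif TGANTCA in 6.75% and the CCAAT box in 33.8%. GAGGAA was found upstream of Ptgs2, Ptgs1, Alox5, Ptges and Hpgds, so it stands before genes that rose and genes that fell. TTGCNNAA was found upstream of Ptgs2, where its letters start 69 bases before the transcript start, and of Hpgds. CCAAT was found upstream of Pla2g2d, and TATAAA before a second start of Pla2g4a. These are matches of letters only.

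Day 3 after infarction split the set evenly. In S7fl/fl macrophages Ptgs2, Ptges, Pla2g4a, Pla2g7 and Alox5ap rose from baseline, and Ptgs1, Hpgds, Alox5, Ltc4s and Pla2g2d fell. All 10 were called, where 64.0% of all genes tested were called in this comparison (29.9% higher, 34.1% lower). All 10 were called in MyS7KO as well, against a background of 65.9% (30.7% higher, 35.2% lower), and all 10 moved the same way in both genotypes, as did 56.2% of all genes.

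**Figure D1:**
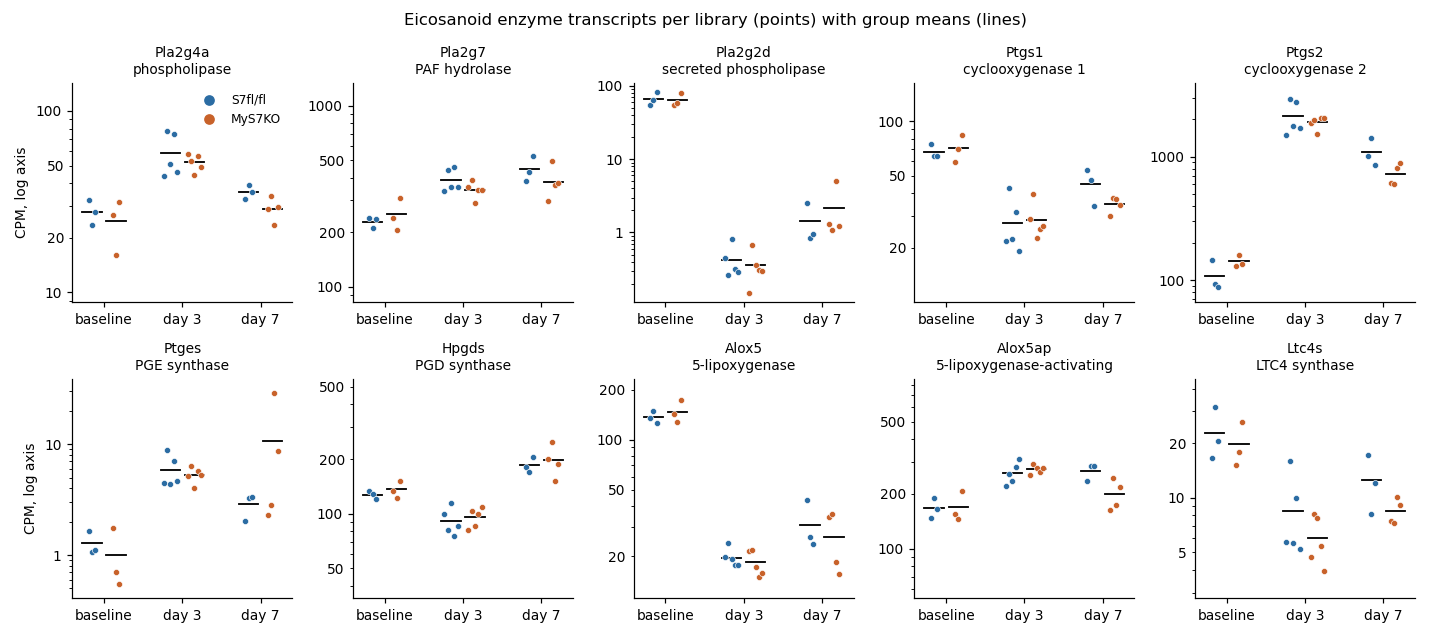
CPM (log axis, a different range in each panel) of the 10 transcripts in each of the 23 libraries, by time and genotype. Points are libraries and lines are group means. Ptgs2 stands at 88.6 to 160 CPM in the baseline libraries and at 1494 to 2918 at day 3, while Alox5 and Pla2g2d drop between the same times.

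Arachidonate release was represented by Pla2g4a, the cytosolic phospholipase A2 that supplies both arms. It read 32.2, 23.4 and 27.7 CPM in the 3 S7fl/fl baseline libraries, 43.7, 77.8, 51.2, 75.1 and 46.0 at day 3, and 32.8, 39.2 and 35.7 at day 7. Every day 3 library lay above every baseline and day 7 library of its genotype, so the rise was transient. The change was 1.08 ± 0.206 at day 3 against baseline (log2, edgeR adjusted p = 0.000106) and -0.71 ± 0.203 at day 7 against day 3 (edgeR adjusted p = 0.0150). The latter call ended without S7fl/fl day 7 replicate 2 (adjusted p = 0.0784) or replicate 4 (0.0532).

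In MyS7KO Pla2g4a stood at 24.8 ± 7.93 CPM (SD, n = 3) at baseline, 52.0 ± 5.53 (n = 5) at day 3 and 28.9 ± 4.26 (n = 4) at day 7. It rose at day 3 by 1.07 ± 0.207 (log2, edgeR adjusted p = 0.000119) and fell by day 7 by 0.85 ± 0.186 (edgeR adjusted p = 0.000978). At day 7 neither genotype differed from baseline past the threshold (edgeR adjusted p = 0.175 in S7fl/fl and 0.411 in MyS7KO). Pla2g4a is the neighbour of Ptgs2 on chromosome 1, on the opposite strand and 139 kb away (chr1:149829618-149961290 and chr1:150100031-150108227, mm10), with 3 annotated genes and no protein-coding one between them.

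The secreted phospholipase Pla2g2d, known from resident macrophages and dendritic cells of lymphoid tissue, was almost lost. Its level was 54.8, 64.4 and 81.4 CPM in S7fl/fl at baseline, 0.445, 0.259, 0.806, 0.317 and 0.286 at day 3, and 2.50, 0.854 and 0.947 at day 7. The MyS7KO libraries read 55.7, 57.6 and 79.8 at baseline, 0.149, 0.666, 0.358, 0.311 and 0.300 at day 3, and 1.29, 1.09, 5.07 and 1.21 at day 7. In counts this was 1056 to 1903 per library at baseline, 3 to 15 at day 3 and 14 to 87 at day 7.

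No infarct library came near the baseline ones. The S7fl/fl mean of Pla2g2d was 158-fold lower at day 3 (log2 -7.30 ± 0.470, edgeR adjusted p = 2.01e-10) and 46.7-fold lower at day 7 (-5.52 ± 0.504, edgeR adjusted p = 5.89e-08). In MyS7KO the changes were -7.43 ± 0.472 and -4.90 ± 0.427 (edgeR adjusted p = 1.49e-10 and 3.73e-08). A small rise from day 3 to day 7 was called in both genotypes, at 1.77 ± 0.594 in S7fl/fl (edgeR adjusted p = 0.0386) and 2.53 ± 0.529 in MyS7KO (0.000809). Without MyS7KO day 7 replicate 4 the MyS7KO rise was 1.69 (adjusted p = 0.00326) and its day 7 change from baseline -5.74, and without S7fl/fl day 7 replicate 2 the S7fl/fl change from baseline was -6.20. In S7fl/fl the call of the rise rests on few counts and ended in 12 of 34 alternative analyses, among them limma-voom (adjusted p = 0.131) and without S7fl/fl day 7 replicate 2 (1.10, adjusted p = 0.323). Adding sex as a covariate was another of the 12.

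Pla2g7, the secreted hydrolase that inactivates platelet-activating factor, followed another course, rising at day 3 and staying high. It read 229 ± 15.3 CPM (SD, n = 3), 390 ± 54.6 (n = 5) and 448 ± 72.6 (n = 3) in S7fl/fl at baseline, day 3 and day 7, and 252 ± 53.1 (n = 3), 344 ± 35.1 (n = 5) and 381 ± 82.2 (n = 4) in MyS7KO. The increases over baseline were 0.77 ± 0.157 at day 3 and 0.96 ± 0.172 at day 7 in S7fl/fl (on the log2 scale; edgeR adjusted p = 0.000187 and 7.92e-05), and 0.45 ± 0.155 and 0.60 ± 0.162 in MyS7KO (0.0143 and 0.00473). All S7fl/fl infarct libraries exceeded the baseline ones, while in MyS7KO the ranges overlapped. The MyS7KO day 3 call ended without MyS7KO baseline replicate 2 (adjusted p = 0.0835). An antisense gene, 1700071M16Rik, overlaps Pla2g7 with 59 to 441 counts against 3745 to 9463 for Pla2g7, and no source used here states whether counting used the strand.

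The cyclooxygenases moved in opposite directions. Ptgs2, the inducible enzyme, read 145, 92.5 and 88.6 CPM in the S7fl/fl baseline libraries, 1494, 2918, 1778, 2756 and 1701 at day 3, and 1014, 1419 and 849 at day 7. In MyS7KO it read 130, 160 and 136, then 1870, 1991, 1518, 2045 and 2042, then 613, 597, 801 and 891. The times did not overlap in either genotype: day 3 was highest, day 7 intermediate and baseline lowest.

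The S7fl/fl mean of Ptgs2 was 19.6-fold higher at day 3 than at baseline (log2 4.29 ± 0.271, edgeR adjusted p = 2.43e-11) and 10.1-fold higher at day 7 (3.33 ± 0.268, 2.49e-09). In MyS7KO it was 13.4-fold higher at day 3 (3.74 ± 0.263, edgeR adjusted p = 1.02e-10) and 5.12-fold higher at day 7 (2.36 ± 0.249, 1.42e-07). From day 3 to day 7 it fell by 0.96 ± 0.226 in S7fl/fl (edgeR adjusted p = 0.00377) and by 1.38 ± 0.208 in MyS7KO (1.84e-05).

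Ptgs1, the constitutive cyclooxygenase, read 75.0, 64.0 and 63.9 CPM in S7fl/fl at baseline, 21.7, 42.7, 22.4, 31.5 and 19.3 at day 3, and 53.5, 47.4 and 34.2 at day 7. The MyS7KO libraries read 59.6, 69.8 and 83.3, then 28.7, 39.4, 22.7, 25.4 and 26.4, then 29.9, 37.5, 37.0 and 34.4. All infarct libraries lay below all baseline libraries of their genotype. The fall at day 3 was 2.46-fold in S7fl/fl (log2 -1.30 ± 0.210, adjusted p = 1.76e-05, edgeR) and 2.49-fold in MyS7KO (-1.31 ± 0.210, 1.45e-05).

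At day 7 Ptgs1 was still below baseline in MyS7KO (log2 -1.03 ± 0.222, edgeR adjusted p = 0.000826). In S7fl/fl the decrease was -0.59 ± 0.239 (edgeR adjusted p = 0.0462), a call that ended in 18 of 34 alternatives, the largest adjusted p being 0.203 without S7fl/fl day 7 replicate 4. Adding sex as a covariate was another of the 18. Ptgs1 recovered in part from day 3 to day 7 in S7fl/fl (0.71 ± 0.213, edgeR adjusted p = 0.0199), with overlapping ranges. That rise was not called when only the groups compared were fitted (adjusted p = 0.0914), nor without S7fl/fl day 7 replicate 2 (0.129), day 7 replicate 3 (0.0632) or day 3 replicate 3 (0.0503). In MyS7KO the change was 0.28 ± 0.198 (edgeR adjusted p = 0.278).

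Per length, the cyclooxygenases started almost level. The ratio of Ptgs2 to Ptgs1 FPKM had a median of 1.23 in S7fl/fl and 1.84 in MyS7KO at baseline, 67.4 and 56.8 at day 3, and 21.1 and 17.9 at day 7. At baseline the 6 libraries ranged from 1.18 to 1.94, and no infarct library was below 13.5.

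**Figure D2:**
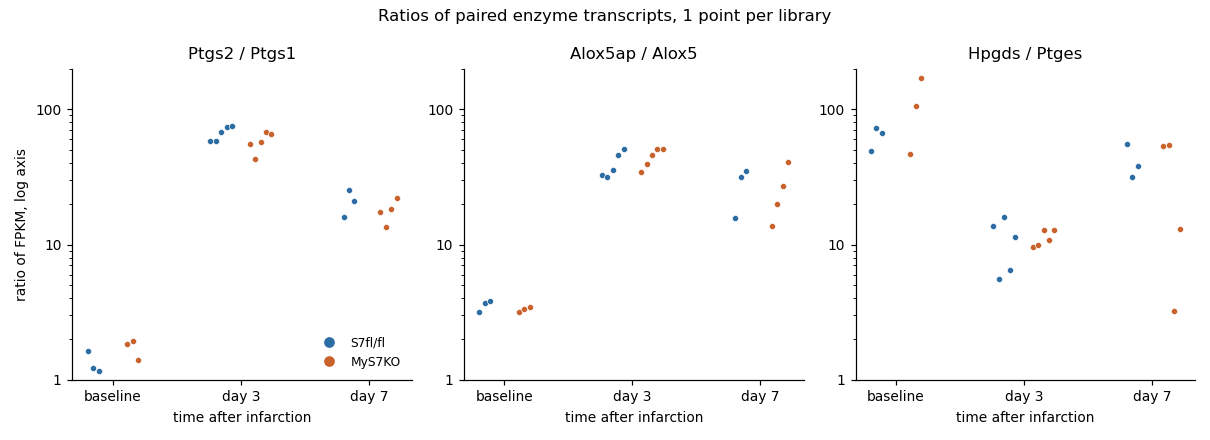
Ratio of deposited FPKM (log axis) of Ptgs2 to Ptgs1, Alox5ap to Alox5 and Hpgds to Ptges, 1 point per library, by time and genotype. The first ratio is 1.18 to 1.94 at baseline and 42.8 to 74.7 at day 3; in the third, MyS7KO day 7 spreads from 3.21 to 54.2.

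The terminal prostaglandin synthases also diverged at day 3. Ptges, the inducible membrane-bound prostaglandin E synthase, was scarce throughout, at 1.65, 1.07 and 1.11 CPM in S7fl/fl at baseline, 4.45, 8.94, 4.36, 7.11 and 4.63 at day 3, and 2.01, 3.30 and 3.34 at day 7. The MyS7KO libraries read 1.75, 0.709 and 0.545, then 5.17, 6.35, 4.05, 5.73 and 5.22, then 2.30, 2.81, 28.8 and 8.71. Day 3 was above baseline in every library of both genotypes. The rise was 2.19 ± 0.657 in S7fl/fl (log2, adjusted p = 0.00688, edgeR) and 2.40 ± 0.684 in MyS7KO (0.00468). In S7fl/fl it was not called by limma-voom (adjusted p = 0.0702), and in MyS7KO it was 3.11 without MyS7KO baseline replicate 1.

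At day 7 Ptges varied more among the 4 MyS7KO libraries (SD 12.4 CPM) than in any other group, where the SD was at most 2.05 CPM. Replicate 4 had 494 counts of Ptges, while the lowest of the 4 had 41. Against baseline the MyS7KO change was 3.40 ± 0.709 (log2, edgeR adjusted p = 0.000743), and it stayed called without replicate 4 at 2.20 (adjusted p = 0.000695) and without baseline replicate 1 at 4.09 (0.00139). In S7fl/fl the change was 1.16 ± 0.714 (edgeR adjusted p = 0.188). Replicate 4 also had the highest summed endothelial and mural markers among the day 7 libraries, 1223 CPM against 176 to 649 in the other MyS7KO ones, and the highest cardiomyocyte markers (64.4 CPM). Fibroblast markers were instead highest in MyS7KO day 7 replicate 1, at 5088 CPM against 4198 in replicate 4. Replicate 1 had the lowest Ptges of the 4 (2.30 CPM). Its endothelial and mural markers (649 CPM) were above those of replicate 5 (608 CPM), where Ptges read 8.71 CPM. The part of these other cells in the Ptges level was not tested.

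Hpgds, the haematopoietic prostaglandin D synthase, dipped and then overshot. In S7fl/fl it read 133, 128 and 121 CPM at baseline, 100, 81.6, 114, 75.1 and 85.9 at day 3, and 181, 169 and 206 at day 7. MyS7KO libraries stood at 122 to 151, 81.6 to 109 and 151 to 249. The 3 times did not overlap in S7fl/fl, and in MyS7KO the highest baseline and lowest day 7 libraries differed by less than rounding shows. The fall at day 3 was small, -0.48 ± 0.141 in S7fl/fl and -0.50 ± 0.141 in MyS7KO (log2, edgeR adjusted p = 0.00504 and 0.00345). From day 3 to day 7 Hpgds rose by 1.02 ± 0.140 and 1.04 ± 0.130 (edgeR adjusted p = 1.69e-05 and 1.86e-06), and at day 7 it exceeded baseline by 0.54 ± 0.159 and 0.54 ± 0.150 (0.00692 and 0.00570).

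The ratio of Hpgds to Ptges FPKM therefore fell and partly returned. Its median was 66.3 in S7fl/fl and 105 in MyS7KO at baseline, 11.4 and 10.7 at day 3, and 37.7 and 33.3 at day 7. Hpgds RNA stayed above Ptges RNA per length in every library, the lowest ratio being 3.21 in MyS7KO at day 7.

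In the leukotriene arm the enzyme and its helper came apart. Alox5, which encodes 5-lipoxygenase, read 135, 148 and 126 CPM in S7fl/fl at baseline, 19.7, 24.0, 19.1, 17.7 and 17.7 at day 3, and 43.3, 25.9 and 23.7 at day 7. In MyS7KO it read 142, 128 and 172, then 21.4, 21.7, 17.3, 14.9 and 15.9, then 34.4, 35.7, 18.5 and 15.6. Every infarct library, at most 43.3 CPM, lay below the lowest baseline library, at 126 CPM. The S7fl/fl mean was 6.94-fold lower at day 3 (log2 -2.79 ± 0.231, edgeR adjusted p = 3.15e-09) and 4.40-fold lower at day 7 (-2.14 ± 0.269, 2.35e-06), and the MyS7KO mean 8.06-fold lower (-3.01 ± 0.232, 1.04e-09) and 5.65-fold lower (-2.50 ± 0.247, 1.09e-07).

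From day 3 to day 7 Alox5 did not pass, at 0.66 ± 0.235 in S7fl/fl (log2, adjusted p = 0.0503, edgeR) and 0.51 ± 0.219 in MyS7KO (0.0714). Both were called in some alternatives, 10 of 34 for S7fl/fl and 4 of 34 for MyS7KO.

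Alox5ap, the membrane protein that hands arachidonate to 5-lipoxygenase, rose instead. It read 148, 191 and 166 CPM at baseline in S7fl/fl, 220, 259, 235, 281 and 311 at day 3, and 235, 284 and 285 at day 7, with no overlap between baseline and infarct. The increases were 0.64 ± 0.142 and 0.67 ± 0.156 (log2, edgeR adjusted p = 0.000472 and 0.00111). In MyS7KO it read 155, 146 and 208, then 254, 294, 277, 263 and 279, then 164, 246, 173 and 219. The day 3 rise was 0.69 ± 0.142 (edgeR adjusted p = 0.000208), the day 7 libraries overlapped baseline (0.24 ± 0.146, 0.189), and the fall from day 3 to day 7 was called at -0.45 ± 0.129 (0.00771).

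The ratio of Alox5ap to Alox5 FPKM went from 3.16 to 3.82 over the 6 baseline libraries to 31.3 to 50.8 at day 3 and 13.8 to 40.6 at day 7. Per length the helper's RNA was more abundant than that of its enzyme in every library.

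Ltc4s, which joins leukotriene A4 to glutathione and so commits it to the cysteinyl leukotrienes, was 22.9 ± 7.78 CPM (SD, n = 3) at baseline, 8.47 ± 4.57 (n = 5) at day 3 and 12.5 ± 4.56 (n = 3) at day 7 in S7fl/fl. In MyS7KO it was 19.8 ± 5.81 (n = 3), 5.99 ± 1.85 (n = 5) and 8.50 ± 1.37 (n = 4). It fell at day 3 by 1.44 ± 0.334 (log2, edgeR adjusted p = 0.000850) and 1.72 ± 0.337 (0.000169), with no overlap. At day 7 it was below baseline in MyS7KO (-1.22 ± 0.355, edgeR adjusted p = 0.00902), a call that ended without MyS7KO baseline replicate 3 (0.0574). In S7fl/fl the value was -0.87 ± 0.380 (edgeR adjusted p = 0.0629), which passed in 7 of 34 alternatives, DESeq2 and limma-voom among them.

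Against baseline, day 7 thus retained part of the day 3 picture. In S7fl/fl 7 of the 10 were called, with Ptgs2, Pla2g7, Alox5ap and Hpgds higher and Alox5, Ptgs1 and Pla2g2d lower, where 50.2% of all genes were called (24.8% higher, 25.4% lower). In MyS7KO 8 were called, with Ptgs2, Pla2g7, Hpgds and Ptges higher and Alox5, Ptgs1, Pla2g2d and Ltc4s lower, against 44.0% of all genes (22.2% higher, 21.8% lower). Ptgs2, Pla2g7, Hpgds, Alox5, Ptgs1 and Pla2g2d were called the same way in both genotypes, 6 of 10, as were 37.5% of all genes. Of these, the S7fl/fl call of Ptgs1 ended in 18 of 34 alternatives. The S7fl/fl count of 7 ran from 6 to 8 when 1 library was left out. The comparisons of day 7 with baseline share their baseline libraries with those of day 3.

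From day 3 to day 7 fewer genes moved. In S7fl/fl Hpgds, Ptgs1 and Pla2g2d rose and Ptgs2 and Pla2g4a fell, 5 of 10, where 21.7% of all genes were called (11.5% higher, 10.1% lower). Without S7fl/fl day 7 replicate 2 only 2 of these were called. In MyS7KO Hpgds and Pla2g2d rose and Ptgs2, Alox5ap and Pla2g4a fell, 5 of 10, where 39.6% of all genes were called (20.5% higher, 19.1% lower). Ptgs2, Pla2g4a, Hpgds and Pla2g2d moved the same way in both, 4 of 10, against 17.9% of all genes.

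**Figure D3:**
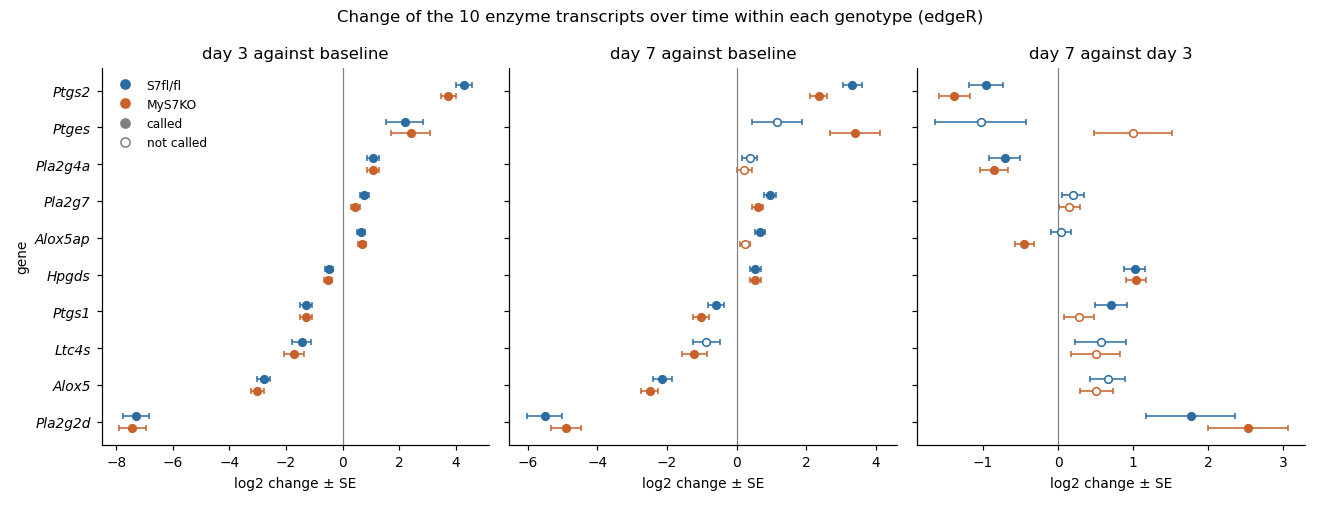
Change of each transcript of the set (log2, with its standard error) between times, separately for S7fl/fl and MyS7KO. Filled points were called at an edgeR adjusted p under 0.05 and open points were not. At day 3 against baseline all points are filled, from Ptgs2 at 4.29 and 3.74 to Pla2g2d at -7.30 and -7.43.

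The comparison of MyS7KO with S7fl/fl asks whether loss of Smad7 in myeloid cells changed the RNA of these genes. None of the 10 was called at any time by edgeR, DESeq2 or limma-voom, where edgeR called 0.0121% of all genes at baseline, 0.0121% at day 3 and 0.0181% at day 7. These were 2, 2 and 3 genes by edgeR, and 2, 5 and 62 by DESeq2 and 2, 4 and 13 by limma-voom. At an unadjusted p under 0.05 there were 0 of the 10 at baseline, 0 at day 3 and 3 at day 7, and over all genes 375, 594 and 2173. Over 35 analysis settings, 350 values at each time, none passed either. The lowest adjusted p was 0.0800, for Alox5ap at day 7 without MyS7KO day 7 replicate 3.

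At day 7 the genes with the lowest unadjusted p were Ptges, Alox5ap and Ptgs2. Alox5ap stood at 200 ± 38.7 CPM (SD, n = 4) in MyS7KO and 268 ± 28.4 (n = 3) in S7fl/fl (log2 -0.42 ± 0.145, edgeR adjusted p = 0.294). Ptgs2 stood at 726 ± 144 and 1094 ± 293 CPM (-0.59 ± 0.227, edgeR adjusted p = 0.327). For both genes the highest MyS7KO library exceeded the lowest S7fl/fl one. Ptges stood at 10.6 ± 12.4 and 2.88 ± 0.756 CPM (1.89 ± 0.635, edgeR adjusted p = 0.294). Leaving out MyS7KO day 7 replicate 4 brought the difference to 0.69 (adjusted p = 0.635).

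Whether the changes over time differed between the genotypes was tested directly. None of the 10 passed by edgeR, DESeq2 or limma-voom. By edgeR no gene did (0 of 16545 in each of the 3 tests, a background of 0%), with 741, 862 and 1726 genes at an unadjusted p under 0.05. DESeq2 called 0, 3 and 6 of all genes and limma-voom called 0 in each. Of the 10, 0 had such a p for day 3 against baseline, 2 for day 7 against baseline (Ptgs2 and Ptges) and 2 for day 7 against day 3 (Alox5ap and Ptges). The lowest edgeR adjusted p among the 10 was 0.878, 0.877 and 0.447.

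Per length, the order of the RNAs changed with time. At baseline in S7fl/fl Alox5ap led at 117 FPKM and Pla2g7 followed at 78.2, ahead of Alox5 (32.9), Pla2g2d (29.5), Ptgs2 (23.5), Ltc4s (22.4), Hpgds (19.6) and Ptgs1 (17.2), and Pla2g4a (4.30) and Ptges (0.323) came last. The ranges of neighbours overlapped from Alox5 down to Ptgs1, so that stretch of the order is not resolved. At day 3 Ptgs2 led at 458 FPKM over Alox5ap (182) and Pla2g7 (132), and the next was Hpgds at 14.0.

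From Hpgds down to Alox5, which stood at 4.71 FPKM, neighbours overlapped at day 3, so that order is not resolved either, while Pla2g2d came last, at 0.185. At day 7 Ptgs2 (234), Alox5ap (185) and Pla2g7 (151) overlapped as neighbours, and Hpgds (28.3) was the fourth, clear of its neighbours on both sides. The MyS7KO libraries had the same leader at each time: Alox5ap at baseline (119 FPKM), then Ptgs2 at day 3 (413) and day 7 (157). Its range overlapped that of the next gene at baseline and at day 7.

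Cell type markers moved with the same times. Resident cardiac macrophage markers, among them Timd4, Lyve1 and Folr2, summed to 5031 to 8025 CPM in the baseline libraries, 1497 to 2875 at day 3 and 975 to 1864 at day 7, and 7 of 7 were called lower at both times in both genotypes. Classical monocyte markers, among them Ly6c2 and Ccr2, summed to 164 to 249, 680 to 1846 and 299 to 730 CPM, with 7 of 7 higher at day 3 in S7fl/fl and 6 of 7 in MyS7KO. Endothelial and mural markers summed to 1144 to 2318, 302 to 718 and 176 to 1223 CPM, with 8 of 8 lower at day 3 in both genotypes. Over all genes 34.1% in S7fl/fl and 35.2% in MyS7KO were called lower at day 3, and 29.9% and 30.7% higher. At day 7 against baseline 25.4% and 21.8% were called lower. The part of these marker shifts in the enzyme results was not tested. In bulk RNA fewer cells of a type and less RNA per cell cannot be told apart.

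Cells known for single enzymes of the set were also checked. Markers of mast cells and basophils, rich in Hpgds, Alox5 and Ltc4s, summed to 35.6 to 89.2 CPM at baseline, 39.1 to 55.4 at day 3 and 27.1 to 52.0 at day 7, and only 4 of 10 passed the low-count filter. Of these 4, 2 were called lower and 1 higher at day 3 in both genotypes. Over all genes 34.1% in S7fl/fl and 35.2% in MyS7KO were called lower at day 3. At day 7 against baseline 2 were called lower in S7fl/fl (25.4% of all genes) and 3 in MyS7KO (21.8%), and 1 higher in each. Alox5 was lower at both times in both genotypes. Hpgds was lower at day 3 and higher at day 7 in both. Ltc4s was lower at day 3 in both, and at day 7 it was called lower in MyS7KO only. Cpa3 averaged 3 counts or fewer per library in every infarct group and in MyS7KO at baseline, and Tpsb2 in all 6 groups. Markers of platelets, a classic site of Ptgs1, summed to 6.49 to 8.71 CPM at baseline, 3.55 to 5.58 at day 3 and 5.24 to 9.13 at day 7. Of 4 tested, 2 were called lower at day 3 in both genotypes, as was Ptgs1. At day 7 against baseline 0 were called lower in either genotype, where 25.4% of all genes were in S7fl/fl and 21.8% in MyS7KO. In S7fl/fl 1 was called higher (24.8% of all genes). Ptgs1 was called lower in both, but the S7fl/fl call ended in 18 of 34 alternatives. The part of platelets in the Ptgs1 level was not tested. Dendritic cell markers summed to 81.5 to 148 CPM, and neutrophil markers to 95.7 to 213 CPM. At day 3 in S7fl/fl 3 of 7 dendritic cell markers were higher and 4 lower, against 29.9% and 34.1% of all genes. Of 8 neutrophil markers tested, 1 was higher and 3 were lower there. Fibroblast markers summed to 505 to 1062 CPM at baseline and 248 to 1220 at day 3. At day 7 they summed to 1286 to 3401 in S7fl/fl and 1775 to 5088 in MyS7KO. From day 3 to day 7, 6 of 8 rose in S7fl/fl (11.5% of all genes) and 8 of 8 in MyS7KO (20.5%). The part of these cell types was not tested either.

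The other genes of the pathway were described from 7 lists with 76 names on 77 rows, of which 61 rows were tested. In S7fl/fl 22 rose and 19 fell at day 3, 15 and 9 differed upward and downward from baseline at day 7, and 13 rose and 11 fell from day 3 to day 7. In MyS7KO these were 25 and 17, 14 and 6, and 14 and 15, and none was called by genotype. As shares of the 61, S7fl/fl had 67.2%, 39.3% and 39.3% called where all genes had 64.0%, 50.2% and 21.7%, and MyS7KO 68.9%, 32.8% and 47.5% where all genes had 65.9%, 44.0% and 39.6%. At day 3 the lists were thus near the background. The median log2 change of the 61 at day 3 in S7fl/fl was 0.24, against -0.06 over all genes and 0.08 over the 10 genes of the set.

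**Figure D4:**
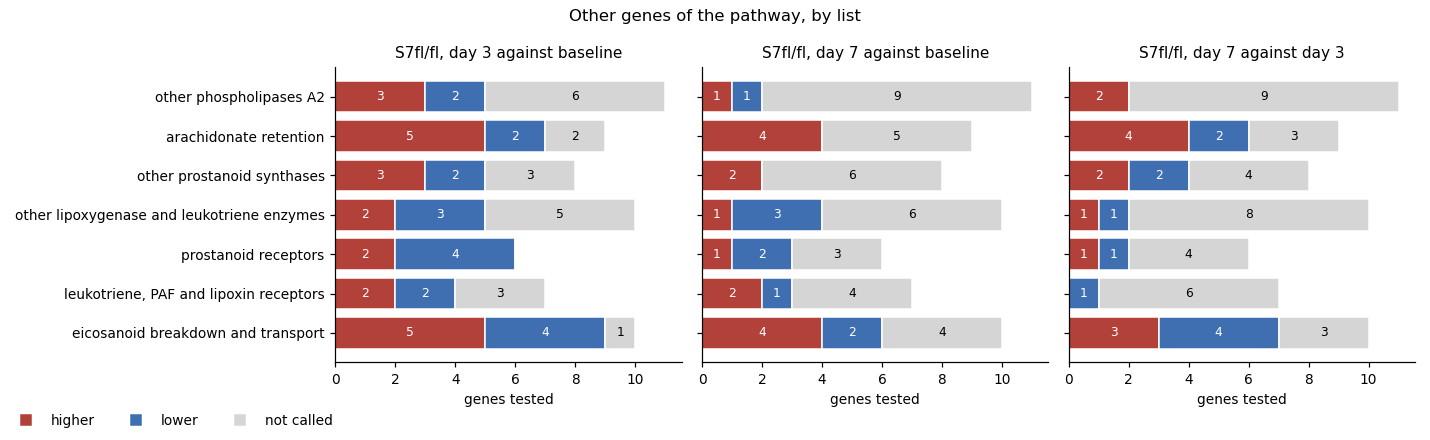
Number of tested genes of each pathway list that were called higher, called lower or not called in S7fl/fl, for the 3 comparisons of times (edgeR). At day 3 the breakdown and transport list has 5 higher and 4 lower of 10, and the prostanoid receptors 2 higher and 4 lower of 6. Over all genes 29.9% were called higher and 34.1% lower at day 3.

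RNA of the first enzyme of prostaglandin breakdown was lowest at day 3, when that of Ptgs2 was highest. Hpgd, the dehydrogenase that inactivates prostaglandin E2, fell in S7fl/fl from 162 ± 22.1 CPM (SD, n = 3) to 12.8 ± 2.22 (n = 5) at day 3 (log2 -3.66 ± 0.231, edgeR adjusted p = 7.10e-11) and stood at 58.8 ± 26.7 (n = 3) at day 7, a rise over day 3 of 2.20 ± 0.227 (1.41e-06). Ptgr1, a reductase that acts on oxidised prostaglandins and leukotriene B4, rose from 17.2 to 58.2 CPM at day 3 (1.76 ± 0.151, edgeR adjusted p = 1.54e-09). Cyp4f18, a leukotriene B4 hydroxylase, was higher at day 7 than at baseline, 131 against 52.4 CPM (1.32 ± 0.181, edgeR adjusted p = 3.64e-06). Cyp4f13, of the same enzyme family, fell to 18.0 CPM at day 3 and rose to 30.1 at day 7. In the list, 5 of 10 rose and 4 fell at day 3, where 29.9% of all genes were called higher and 34.1% lower.

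Prostanoid receptors changed in both directions, 2 of 6 tested higher and 4 lower at day 3 in S7fl/fl, where 29.9% of all genes were called higher and 34.1% lower. The receptors of prostaglandin E2 that raise cyclic AMP moved apart. Ptger2 rose from 3.03 to 17.8 CPM (log2 2.56 ± 0.237, edgeR adjusted p = 4.51e-09) and fell to 10.6 at day 7, a call that ended without S7fl/fl day 7 replicate 2 or 4 (adjusted p = 0.0927 and 0.0826), whereas Ptger4 fell from 90.5 to 47.6 (-0.93 ± 0.137, 3.83e-06) and rose again to 107 at day 7 (1.16 ± 0.137 over day 3, 3.07e-06). Ptgfr, the receptor of prostaglandin F2alpha, had at most 6 counts per S7fl/fl library at day 7 against 14 to 41 at baseline.

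Among receptors for leukotrienes, platelet-activating factor and lipoxins, 2 of 7 rose and 2 fell at day 3, against 29.9% and 34.1% of all genes. Ltb4r1, the high-affinity leukotriene B4 receptor, went from 5.54 ± 0.540 CPM (SD, n = 3) to 44.2 ± 14.4 (n = 5) at day 3 (log2 3.00 ± 0.307, edgeR adjusted p = 5.22e-08) and back to 12.2 ± 2.05 (n = 3) at day 7 (-1.86 ± 0.286 against day 3, 9.57e-05). Ptafr, the receptor of platelet-activating factor, was higher at day 7 than at baseline, 459 against 245 CPM (0.90 ± 0.152, edgeR adjusted p = 4.31e-05). Gpr17, at 1.29 CPM at baseline, was at 6 counts or fewer in every infarct library of S7fl/fl.

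Leukotriene A4 can go either way, and the enzymes of its branches moved differently. Lta4h, which makes leukotriene B4, rose from 56.2 ± 0.151 CPM (SD, n = 3) to 77.2 ± 1.80 (n = 5) at day 3 (log2 0.46 ± 0.0733, edgeR adjusted p = 1.05e-05) and fell to 61.5 ± 5.83 (n = 3) at day 7 (-0.33 ± 0.0731, 0.00222). Ggt5, which trims leukotriene C4 to D4, fell from 26.0 to 7.72 CPM at day 3 (-1.75 ± 0.153, edgeR adjusted p = 2.02e-09) and rose to 16.1 at day 7 (1.06 ± 0.156, 3.76e-05). The ratio of Lta4h to Ltc4s FPKM had a median of 0.452 in S7fl/fl at baseline, 2.18 at day 3 and 0.935 at day 7, and 0.487, 2.44 and 1.14 in MyS7KO. Alox12, the platelet-type lipoxygenase, read 7.48 CPM at baseline and 0.628 at day 7 (-3.54 ± 0.549, edgeR adjusted p = 1.77e-05; -4.52 without S7fl/fl day 7 replicate 2). The row of the dipeptidase Dpep2 with more counts, of 2 rows with that name, rose to 6.02 from 1.80 CPM at day 7 (1.72 ± 0.326, edgeR adjusted p = 0.000149).

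Among other prostanoid synthases 3 of 8 rose and 2 fell at day 3, against 29.9% and 34.1% of all genes. Ptges3, the cytosolic prostaglandin E synthase and Hsp90 co-chaperone, rose from 106 to 157 CPM (log2 0.56 ± 0.0906, edgeR adjusted p = 1.19e-05) and returned to 112 at day 7 (-0.49 ± 0.0904 against day 3, 0.000418). Akr1b3, an aldose reductase with prostaglandin F synthase activity, rose from 88.3 to 114 CPM at day 3 (0.37 ± 0.105, edgeR adjusted p = 0.00399). Ptges2 fell from 9.99 to 7.00 CPM between day 3 and day 7 (-0.51 ± 0.131, edgeR adjusted p = 0.00661), and the carbonyl reductase Cbr3 was higher at day 7 than at baseline, 11.4 against 7.15 CPM (0.67 ± 0.198, 0.00719).

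Enzymes that hold arachidonate in membranes changed in both directions, 5 of 9 higher and 2 lower at day 3, against the same background of 64.0% of all genes called. Lpcat3, which puts polyunsaturated chains into lysophospholipids, rose from 19.3 to 41.3 CPM (log2 1.10 ± 0.0855, edgeR adjusted p = 3.38e-10), and the acyl-CoA synthetase Acsl3 fell from 29.0 to 14.3 (-1.02 ± 0.128, 4.41e-07). Lpcat2, which also makes platelet-activating factor, rose late, from 65.7 CPM at day 3 to 146 at day 7 (1.15 ± 0.112, edgeR adjusted p = 2.55e-07). Of 11 other phospholipases tested, 3 rose and 2 fell at day 3, against 29.9% and 34.1% of all genes. One that fell, Pla2g4b, had 13 to 20 counts per S7fl/fl library at baseline and 1 to 5 at day 3. Pla2g15, the lysosomal one, went from 156 CPM at day 3 to 277 at day 7 (0.83 ± 0.152, edgeR adjusted p = 0.000415), and Pla2g16 fell from 29.3 to 9.94 CPM at day 3 (-1.56 ± 0.152, 9.81e-09).

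**Figure D5:**
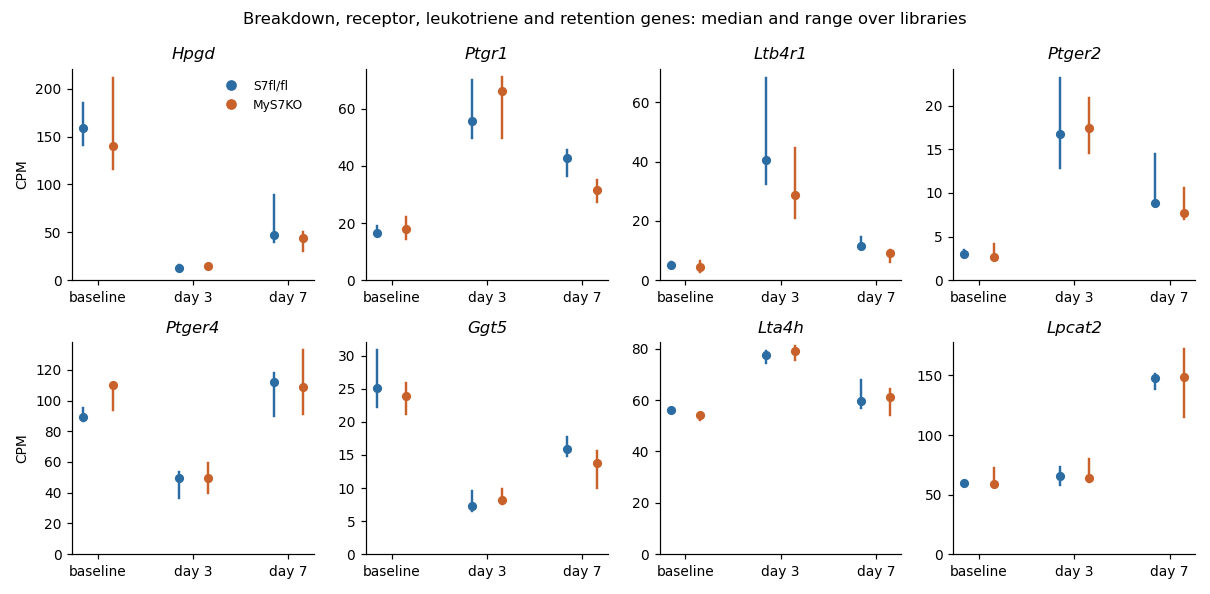
CPM of 8 pathway genes outside the set of 10, as the median (point) and range (line) over the libraries of each genotype and time. Hpgd and Ggt5 are lowest at day 3, Ltb4r1 and Ptger2 are highest at day 3, and Lpcat2 is highest at day 7.

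Genes with the most similar course over the 6 groups were sought among 11490 tested genes, by the root mean square difference of the centred group means of log2 CPM. Clec4e, Arg2 and Timp1 were nearest to Ptgs2, at 0.178, 0.179 and 0.184. Hrh1 (0.135), Slc5a3 (0.166) and Gabbr1 (0.189) were nearest to Alox5. Cxcl13, Cd207 and Retnla were nearest to Pla2g2d, at 0.338, 0.342 and 0.458.

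For Ptges they were Cd109 (0.217), Ass1 (0.260) and Tnfrsf9 (0.282), for Ltc4s Rac3 (0.0891), Cyp2t4 (0.103) and Catsperg1 (0.105), and for Ptgs1 Trf (0.0857), Cdiptos (0.0910) and Bbc3 (0.0916). Nearest to Hpgds were Tle1 (0.0483), Plxna4os1 (0.0503) and Gtf2ird2 (0.0606), and to Pla2g4a Dtx2 (0.0452), Sf3b6 (0.0516) and Ramp3 (0.0574). A smaller distance is easier to reach for a gene that spans less, and Ptgs2 and Pla2g2d spanned 4.28 and 7.24 log2 units. Alox5ap and Pla2g7 spanned less than 1 and were not compared.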

How the data were processed

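Analysis started from whole-number gene counts deposited by the authors, left unchanged, and from the authors' FPKM, which were checked to equal count over gene length times 1 constant per library in genes of at least 100 counts. Tools listed in the submitters' processing notes are HTSeq 0.6.1, Cufflinks 2.1.1 and TopHat2 2.0.9, and the builds GRCm38.p6 and mm10; the role of each and strand use are not given in the sources used here. Counts were scaled (TMM), filtered (filterByExpr) and fitted with edgeR 4.0.16 (robust quasi-likelihood, 1 coefficient per group, all 23 libraries, R 4.3.3); the script was tested on simulated data. P-values are two-sided and adjusted over the 16545 genes tested. The genes, lists and naming rule were chosen with earlier results of these data known, and the motifs after the data were seen. Named from each pathway list were the 2 called genes with the lowest p in each S7fl/fl comparison of times. The fit was repeated with DESeq2 1.42.0, RLE scaling, genes of low count kept, limma 3.58.1 (voom with quality weights, and trend on log2(FPKM + 1) and log2(FPKM + 0.1)), fits of the groups compared, sex as a covariate, no mixed-sex libraries, a replicate block, and each library left out.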

Additional observations from a re-analysis of the deposited data

Results flagged for a closer look

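Pla2g2d read 5.07 CPM in MyS7KO day 7 replicate 4 and 1.09 to 1.29 in the other 3 libraries of that group, so that the gap to the nearest library took 0.949 of the range of the group. It was the 1 such case among 30 tests, of 10 genes in 3 groups of 4 or 5 libraries, where chance alone marks about 1 in 20. The same library had the highest Ptges level (28.8 CPM) and the highest endothelial and mural markers of the day 7 libraries (1223 CPM). Fibroblast markers were instead highest in MyS7KO day 7 replicate 1 (5088 against 4198 CPM). The part of these markers in the Pla2g2d value was not tested.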

How the results depend on the processing

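The number of the 10 genes called for day 7 against day 3 in S7fl/fl was 5 and ran from 2 (without S7fl/fl day 7 replicate 2) to 6 when 1 library was left out. Over all alternatives 611 of 612 counts of calls stayed within 1.5 times their value. These include the genotype and genotype-by-time counts, which were 0 in every setting. They also include fits that left out a library of a group not compared, so part of this stability was built in. Of the log2 values of the 10 genes between times, and of the 3 genotype differences printed for day 7, 2066 kept direction and call, 40 lost the call, 30 gained it and 6 changed sign, none of these 6 being called; of the other pathway genes 1384 kept both and 10 lost the call. These sign changes came with 1 library left out, for Alox5ap in S7fl/fl (-0.0198 to 0.12), Pla2g7 in MyS7KO (-0.000922 to 0.25) and Ptges in MyS7KO (-0.194 to 1.34), all at day 7 against day 3; the cause was not tested. Genotype differences were less stable in sign: over the alternatives 13 of 29 took both signs, as did 16 of 30 genotype-by-time values, none of them called.

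Whether replicate numbers pair the libraries was not settled. Residuals of same-numbered libraries correlated at -0.300 to 0.264 over 44 pairs of libraries. Among S7fl/fl libraries of their time, 4 of 10 MyS7KO libraries correlated best with the one sharing their number. With only 3 or 5 libraries to choose from, some such matches arise by chance, so pairing is neither shown nor excluded. With a replicate block the 10 genes called at day 3 stayed 10 in both genotypes, those at day 7 against baseline were 8 in S7fl/fl and 8 in MyS7KO, and those at day 7 against day 3 were 5 and 7. Libraries of 1 group differed by more than counting error in all 35 pairs. Depth limits Pla2g2d after infarction (3 to 87 counts) and Ptges at baseline (11 to 40 counts).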

Other observations

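S7fl/fl day 3 replicates 2 and 4 were the 2 highest of their 5 libraries for 6 of the 10 genes. Ptgs2 read 2918 and 2756 CPM there against 1494 to 1778 in the other 3, Pla2g4a 77.8 and 75.1 against 43.7 to 51.2, Ptges 8.94 and 7.11 against 4.36 to 4.63, and Pla2g7 440 and 458 against 338 to 358. Ptgs1 (42.7 and 31.5 against 19.3 to 22.4) and Ltc4s (15.9 and 9.96 against 5.20 to 5.68), which fell at day 3, were also highest in these libraries. Hpgds was lowest in both (81.6 and 75.1 against 85.9 to 114). The summed classical monocyte markers were 1458 and 1846 CPM in the 2 libraries and 722 to 894 in the other 3, and replicate 4 is one of the libraries with a mixed sex signal. This was noticed after the values were seen, and the part of the monocyte markers was not tested.

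Enzymes outside the naming rule, chosen after their values were seen, were as follows. Tbxas1, the thromboxane synthase, read 131 ± 11.4 CPM (SD, n = 3) at baseline, 176 ± 29.2 (n = 5) at day 3 and 160 ± 13.7 (n = 3) at day 7 in S7fl/fl. Ptgis, the prostacyclin synthase typical of endothelium, read 12.1 ± 1.70, 4.01 ± 2.46 and 7.85 ± 5.29 CPM. In the same S7fl/fl groups endothelial and mural markers summed to 1722 to 2296, 302 to 675 and 224 to 478 CPM. Fibroblast markers summed to 711 to 1062, 248 to 1091 and 1286 to 3401 CPM. The part of either cell type in the Ptgis level was not tested. Alox15, a lipoxygenase that feeds lipoxin synthesis, ranged widely within groups: 0.445 to 14.6 CPM over the 5 S7fl/fl day 3 libraries and 0.854 to 20.2 over the 3 of day 7 (edgeR adjusted p = 0.275 and 0.123 against baseline).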
